A study of Homo sapiens with 8 samples.

Results

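The genes described here encode the p38 and JNK arms of the MAP kinase network, listed by symbol as MAP2K3, MAP2K4, MAP2K6, MAP2K7, MAPK8, MAPK9, MAPK13, MAPK14, MAPKAPK2 and MAPKAPK3. Of these 10 genes, 9 had at least 1 probe that could be named, out of 19053 named genes on the arrays, and these 9 genes carried 14 probes. No probe carried a transcript identifier that the reference table pairs with MAPK8, so no value is given for this gene. Expression was measured in A549, a human lung carcinoma cell line, which was exposed either to EEDS, an ethanol extract of D. sophia seeds, or to helveticoside, a cardiac glycoside. One series consisted of a vehicle control and EEDS at 1.25, 5 and 20 μg/mL, and the other of its own vehicle control and helveticoside at 3.75, 15 and 60 nM. Each of the 8 conditions was 1 single-dye Agilent array of RNA pooled from 3 cultures, without replicates. The labels give 48 h of treatment, whereas the study's methods give a shorter exposure for the arrays. Doses of the extract and of the glycoside are on different scales and were not matched.

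In this pathway, MAP3 kinases switch on dual-specificity MAP2 kinases, which in turn phosphorylate p38 or JNK. MAP2K3 and MAP2K6 act on p38, MAP2K7 acts on JNK, and MAP2K4 acts mainly on JNK and can also act on p38. MAPK14 (p38 alpha) and MAPK13 (p38 delta) are p38 kinases, MAPK8 and MAPK9 are JNK1 and JNK2, and MAPKAPK2 and MAPKAPK3 are kinases that p38 activates and that control the stability and translation of cytokine and early response mRNAs. The cascade is known for its response to cytokines, ultraviolet light, osmotic stress and inhibitors of protein synthesis. It is controlled mostly by phosphorylation, which an array of mRNA does not measure.

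Among the 9 genes, the kinases that act upstream of p38 moved furthest, and they moved in opposite directions. MAP2K3 rose and MAP2K6 fell with the dose of both agents, MAPKAPK3 fell, and MAP2K7 rose by a smaller amount. With the brightest probe of each gene, MAP2K4, MAPK14, MAPK9 and MAPKAPK2 stayed within 1.5-fold of the control on all 6 treated arrays. A line was fitted with limma to all 8 arrays, each series having its own starting level and its own slope against the dose step (control 0, then 1, 2 and 3). In this fit the scatter of the arrays about the lines stands in for replicates, and p-values were adjusted over 19043 genes (Benjamini-Hochberg) with a threshold of 0.05. For the mean of both agents' slopes, 2 of the 9 genes rose (MAP2K3 and MAP2K7) and 2 fell (MAP2K6 and MAPKAPK3), while 14.5% of all genes rose and 15.6% fell by the same rule. Of the 11496 genes whose probe was well above background on every array, as it was for 8 of the 9 genes, 20.2% rose and 20.9% fell. With 2 of 9 in each direction the cascade was thus close to this background, so the count is no result about the cascade, and the results below concern the single genes.

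**Figure D1:**
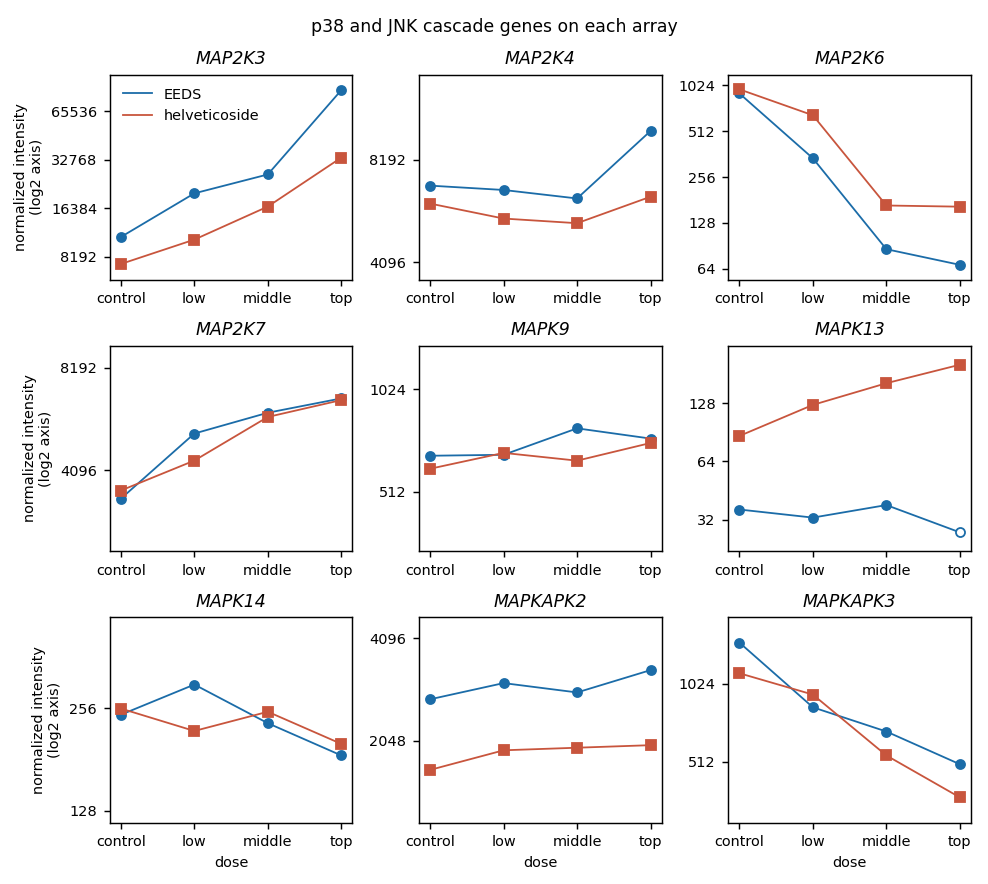
Quantile-normalized intensity of the brightest probe of each gene on each of the 8 arrays (log2 axis, its range set per gene), by dose of EEDS (circles) or helveticoside (squares). Open symbols mark arrays where the probe was not well above background. MAP2K3 and MAP2K7 rise along both lines and MAP2K6 and MAPKAPK3 fall, while MAPK13 differs between the series already on the control arrays.

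The start regions of the kinases that moved furthest, MAP2K3 and MAP2K6, are shown to set the members with opposite changes side by side. Each window runs from 250 bases before to 50 bases after a RefSeq start site in GRCh38.p14, is read 5′ to 3′ on the plus strand, and has matches to the motifs below in capitals. Both genes lie on chromosome 17 and have 2 tabulated start sites. The windows are chr17:21284461-21284760 and chr17:21287786-21288085 for MAP2K3 and chr17:69414447-69414746 and chr17:69502012-69502311 for MAP2K6.
MAP2K3 start 1: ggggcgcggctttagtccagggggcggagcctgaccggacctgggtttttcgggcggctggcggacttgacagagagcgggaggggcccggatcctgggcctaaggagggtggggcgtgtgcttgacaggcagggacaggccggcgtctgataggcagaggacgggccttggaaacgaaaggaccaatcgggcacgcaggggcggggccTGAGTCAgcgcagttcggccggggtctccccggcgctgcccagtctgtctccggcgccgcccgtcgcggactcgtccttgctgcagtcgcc
MAP2K3 start 2: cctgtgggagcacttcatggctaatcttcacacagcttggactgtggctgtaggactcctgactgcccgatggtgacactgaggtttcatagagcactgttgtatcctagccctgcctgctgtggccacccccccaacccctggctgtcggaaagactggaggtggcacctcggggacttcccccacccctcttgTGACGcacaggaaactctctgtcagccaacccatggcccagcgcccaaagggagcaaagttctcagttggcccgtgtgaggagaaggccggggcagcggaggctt
MAP2K6 start 1: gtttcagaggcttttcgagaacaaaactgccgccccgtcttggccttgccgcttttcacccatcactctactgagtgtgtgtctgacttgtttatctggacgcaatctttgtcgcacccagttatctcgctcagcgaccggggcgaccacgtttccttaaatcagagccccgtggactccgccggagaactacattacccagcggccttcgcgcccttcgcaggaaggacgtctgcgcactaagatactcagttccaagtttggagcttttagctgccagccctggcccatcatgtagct
MAP2K6 start 2: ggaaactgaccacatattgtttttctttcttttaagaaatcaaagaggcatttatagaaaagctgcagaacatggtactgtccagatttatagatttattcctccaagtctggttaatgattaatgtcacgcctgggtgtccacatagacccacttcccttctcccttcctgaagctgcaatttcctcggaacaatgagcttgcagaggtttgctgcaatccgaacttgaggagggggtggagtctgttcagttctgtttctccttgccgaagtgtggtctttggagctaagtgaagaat
The motifs searched on both strands were the AP-1 site (TGACTCA or TGAGTCA), the CRE (TGACGTCA), its core TGACG, which every CRE also contains, and the EGR site (GCGGGGGCG or GCGTGGGCG). The first MAP2K3 window held 1 AP-1 site, at offset -41 from the start site, and 4.95% of 35116 RefSeq promoters of this length held one. The second MAP2K3 window held a CRE core at offset -55, a motif that occurred in 24.55% of the promoters. No motif matched in either MAP2K6 window, which says only that these letters are not in these windows. MAPKAPK2 was not searched. Among the other members, MAP2K7 had a CRE core at offsets -131 and 23, MAP2K4 an EGR site at -132, the second MAPKAPK3 start a CRE core at -88, and MAPK8 EGR sites at -116 and -61 and CRE cores at -39 and -17. The EGR site occurred in 5.77% of the promoters. The first MAP2K3 window was 70.7% G and C with 30 CpG dinucleotides, and the first MAP2K6 window was 55.0% with 20, against medians of 58.7% and 14 over the 35116 promoters.

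MAP2K3, also called MKK3, is located at chr17:21284711-21315240 (GRCh38.p14). Its brightest probe had a normalized intensity of 10879 on the EEDS control and of 20288, 26575 and 88506 at 1.25, 5 and 20 μg/mL. In the helveticoside series, the intensity was 7401 on the control and 10482, 16800 and 33788 at 3.75, 15 and 60 nM. Every treated array lay above the control of its series, and the level was higher at each dose than at the dose before it. The intensity at the top dose was 8.14 times the control with EEDS and 4.57 times with helveticoside. The step from the middle to the top dose was the steepest in both series, with a log2 difference of 1.74 for EEDS and 1.01 for helveticoside. The fitted slope was 0.95 log2 units per dose step for EEDS (standard error 0.13, limma adjusted p = 0.0162) and 0.73 for helveticoside (standard error 0.13, adjusted p = 0.0291). By slope, MAP2K3 ranked 194th among the 19043 genes rising with EEDS and 408th with helveticoside. The control arrays themselves differed by -0.56 on the log2 scale (helveticoside control minus EEDS control), so the EEDS ratios start from the higher control.

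The other probes of MAP2K3 moved the same way at the top doses. The second probe gave log2 ratios of 1.14, 1.62 and 3.16 at the rising doses of EEDS and 0.67, 1.35 and 2.52 with helveticoside. The third and dimmest probe gave -0.13, 0.34 and 1.87 and -0.08, 0.25 and 1.24. All 3 probes are listed for the same transcript and were well above background on all arrays, so the size of the rise depended on the probe while its direction at the top dose did not. With the same fit over 34086 probes, the third probe alone did not pass the test for EEDS (slope 0.61, adjusted p = 0.108) or helveticoside (slope 0.41, adjusted p = 0.271).

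**Figure D2:**
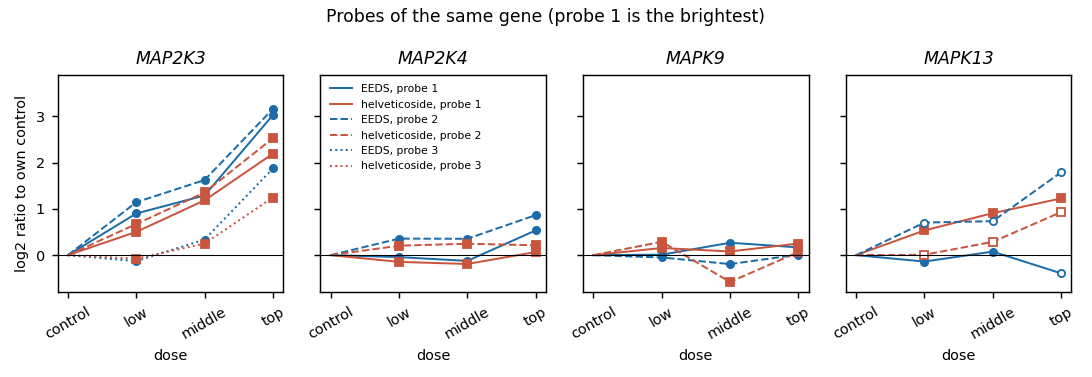
Log2 ratio to the own vehicle control for each probe of the 4 genes with more than 1 probe, by dose. Line styles mark the probes and open symbols mark ratios in which at least 1 array was not well above background. The 3 MAP2K3 probes end between 1.24 and 3.16 at the top doses, and the MAPK13 probes part in the EEDS series.

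MAP2K6, or MKK6, is the closest relative of MAP2K3 and is located at chr17:69414697-69553865. The normalized intensity of its single probe was 903 on the EEDS control and 339, 86.2 and 68.0 at 1.25, 5 and 20 μg/mL. In the helveticoside series it was 961 on the control and 650, 167 and 164 at 3.75, 15 and 60 nM. The control arrays were close to each other, differing by 0.09 on the log2 scale, and all 6 treated arrays lay below both of them. The probe was well above background on all 8 arrays. The level at the top dose was 13.3-fold lower than the control with EEDS and 5.87-fold lower with helveticoside. The size of the fall depended on the processing, with 5.74-fold for EEDS from the signal as scanned, 5.80-fold with normexp and 18.6-fold with scaling to the 75th percentile, and 3.55-fold for helveticoside in the deposited table. A larger share of the change than for MAP2K3 was present at the middle dose. There the log2 ratio of MAP2K6 had reached 90.9% of its top-dose value with EEDS and 99.0% with helveticoside. For MAP2K3, these shares were 42.6% and 54.0%. The MAP2K6 share with EEDS rests on dim signals, 82.7 and 69 before normalization at the middle and top doses. The slope was -1.32 per dose step for EEDS (standard error 0.21, limma adjusted p = 0.0206) and -0.96 for helveticoside (standard error 0.21, adjusted p = 0.0456). By slope, MAP2K6 was the 59th steepest fall among 19043 genes with EEDS and the 301st with helveticoside.

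Within an array, the MAP2K3 signal over the MAP2K6 signal changed against its own control by 4.96-fold, 25.6-fold and 108-fold at the rising doses of EEDS. With helveticoside, the change was 2.10-fold, 13.1-fold and 26.8-fold. Over the processing alternatives, the top-dose value ran from 45.9-fold (signal as scanned) to 143-fold with EEDS and from 18.2-fold to 34.4-fold with helveticoside. These values show an unequal change of both mRNAs, and not their relative abundance, since the probes differ. The pair was set side by side after its values were seen.

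**Figure D3:**
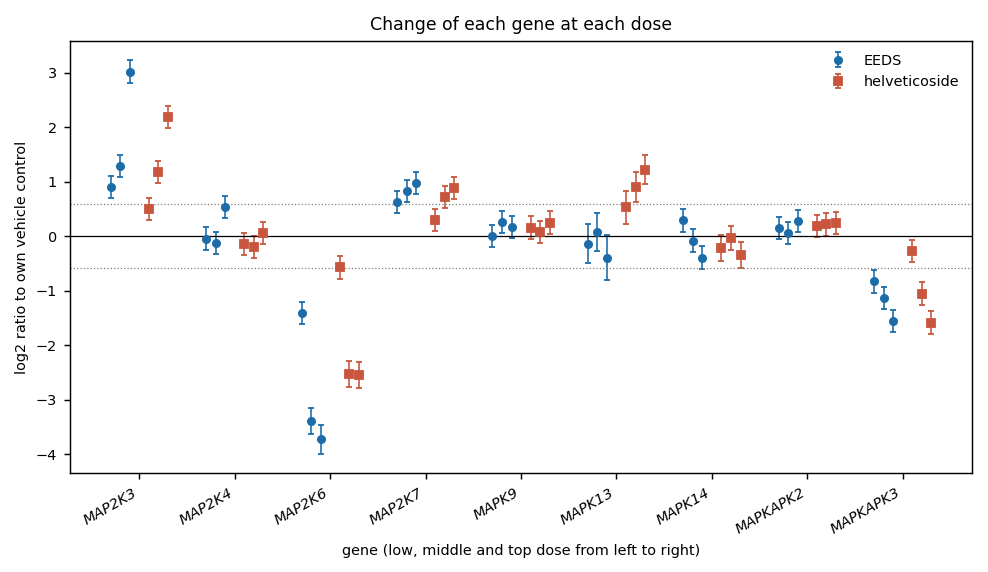
Log2 ratio of each treated array to the vehicle control of its own series for the brightest probe of each gene, with low, middle and top dose from left to right for EEDS (circles) and helveticoside (squares). Bars are the scanner software's error of both spots and cover the error within the arrays only, and dotted lines mark 1.5-fold. MAP2K3 reaches 3.02 and MAP2K6 -3.73 at the top dose of EEDS.

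The MAP2 kinases of the JNK arm changed less. MAP2K7 (MKK7, chr19:7903877-7914478) had a normalized intensity of 3379 on the EEDS control and of 5248, 6040 and 6655 at the rising doses. In the helveticoside series the values were 3570 on the control and 4371, 5870 and 6579. Both series thus began at nearly the same level and ended at nearly the same level, 1.97 times the control with EEDS and 1.84 times with helveticoside. The slope was 0.31 for both EEDS (standard error 0.06, limma adjusted p = 0.0343) and helveticoside (standard error 0.06, adjusted p = 0.0421).

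MAP2K4 (MKK4, chr17:12020877-12143828) had intensities of 6884 on the EEDS control and 6685, 6312 and 9963 at the rising doses, so that the EEDS top dose alone was higher. With helveticoside the intensity was 6098 on the control and 5511, 5341 and 6388, and the treated arrays lay on both sides of the control. Its slopes of 0.15 (standard error 0.09) and 0.02 (standard error 0.09) did not pass the test, with limma adjusted p of 0.318 and 0.981. The second MAP2K4 probe gave log2 ratios between 0.20 and 0.86 on the 6 treated arrays, all above 0. In the fit over all probes, this probe had a mean slope of 0.16 over both agents with an adjusted p of 0.0445, whereas the brightest probe had 0.08 and 0.427. The annotation holds a transcribed pseudogene, MAP2K4P1, and whether the probes also measure it was not tested.

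The p38 and JNK kinases themselves gave few changes. MAPK14, the p38 kinase present in nearly all tissues, had intensities of 245 on the EEDS control and 301, 232 and 186 at the rising doses, and of 256 on the helveticoside control and 220, 250 and 201. Both top doses were the lowest arrays of their series, with log2 ratios of -0.40 and -0.34, but neither slope passed the test (-0.16 with adjusted p = 0.303 for EEDS, -0.08 with adjusted p = 0.654 for helveticoside, by limma). The 95% interval of the slope ran from -0.39 to 0.07 for EEDS and from -0.31 to 0.14 for helveticoside. The only MAPK14 probe is listed for 1 of 4 curated transcripts, and which transcripts it detects was not tested.

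MAPK9 (JNK2) had log2 ratios between 0.01 and 0.27 on the 6 treated arrays with its brightest probe. Its intensity was 654 on the EEDS control and 658, 787 and 734 at the rising doses, and 599 on the helveticoside control and 666, 632 and 712. The slopes were 0.08 (95% interval -0.06 to 0.21) and 0.07 (95% interval -0.07 to 0.21), and neither passed the test. The second MAPK9 probe, listed for another transcript, lay between -0.58 and 0.29.

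MAPK13 (p38 delta) lies next to MAPK14 on chromosome 6, 6298 bases apart, at chr6:36130513-36144521. Its probes did not agree. With the brightest probe, the intensity was 36.1 on the EEDS control and 32.8, 38 and 27.5 at the rising doses, the last of which was not well above background. In the helveticoside series it was 86.6 on the control and 125, 162 and 202, a rise to 2.34 times the control. The helveticoside slope was 0.40 (standard error 0.09, limma adjusted p = 0.0438) and the EEDS slope was -0.10 (standard error 0.09, adjusted p = 0.536). The second probe went the other way in the EEDS series. On the EEDS control it was not well above background, with a scanner error of 24.3% of the signal. At 20 μg/mL its level was 3.45 times this dim control value. The second probe was not well above background on any helveticoside array. With the brightest probe, the helveticoside control was brighter than the EEDS control by 1.26 on the log2 scale, and the second probe was well above background on neither control. Without any of the 8 arrays in turn, the helveticoside trend of MAPK13 was not called.

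Of the MAPKAP kinases described here, MAPKAPK3 had a trend and MAPKAPK2 did not pass the test. MAPKAPK3 (MK3, chr3:50611520-50649291) had intensities of 1474 on the EEDS control and 830, 670 and 501 at the rising doses. With helveticoside they were 1123 on the control and 929, 542 and 374. The level fell with each dose in both series, and no treated array reached either control. The top dose was 2.94-fold lower than the control with EEDS and 3.01-fold lower with helveticoside. The slopes were -0.50 (standard error 0.08, limma adjusted p = 0.0190) and -0.55 (standard error 0.08, adjusted p = 0.0202), and of the 9 genes MAPKAPK3 had the smallest adjusted p for the helveticoside slope.

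MAPKAPK2 (MK2), its close relative, had intensities of 2707 on the EEDS control and 3020, 2835 and 3297 at the rising doses, and of 1680 on the helveticoside control and 1918, 1951 and 1985. All 6 treated arrays lay above their own control, with log2 ratios of 0.07 to 0.28, but by less than the controls differed from each other (-0.69, helveticoside control minus EEDS control). The slopes were 0.08 (95% interval -0.05 to 0.20) for EEDS and 0.07 (95% interval -0.05 to 0.20) for helveticoside and did not pass the test.

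By agent, 2 of the 9 genes rose with EEDS and 2 fell, against 7.26% and 7.85% of all genes. With helveticoside, 3 rose and 2 fell, against 5.49% and 5.81%. Of the 11496 genes well above background on every array, 1169 rose and 1226 fell with EEDS, and 873 rose and 879 fell with helveticoside. With 9 genes chosen with earlier results of these data known, these counts too are no result about the cascade. The extra rise with helveticoside was MAPK13, and the other 4 genes were MAP2K3, MAP2K7, MAP2K6 and MAPKAPK3 for both agents. When the arrays were left out in turn, the EEDS count dropped to 0 without the EEDS control or the EEDS top dose and to 2 without the helveticoside middle dose, and it was 3 without the EEDS middle dose or the control, the low or the top dose of helveticoside. In these 8 fits the EEDS trend was called 6 times for MAP2K3 and for MAP2K6, 5 times for MAPKAPK3 and 1 time for MAP2K7. The helveticoside count was 0 without the control, the middle or the top dose of helveticoside, 1 without the low dose of either agent, 2 without the EEDS middle dose and 3 without the EEDS control or EEDS top dose. By gene, the helveticoside trend was called 5 times for MAPKAPK3, 3 times for MAP2K3, 1 time each for MAP2K6 and MAP2K7, and never for MAPK13. At an unadjusted p under 0.05, the count was 4 for EEDS in each of these fits with 0 calls, and for helveticoside it was 5, or 3 without its control. The mean slope of both agents changed less, with MAP2K3, MAP2K6 and MAPKAPK3 called in 8 of 8 of these fits and MAP2K7 in 7 of 8 (not without the helveticoside top dose). The mean slopes were 0.84 for MAP2K3 (standard error 0.09, adjusted p = 0.00393), -1.14 for MAP2K6 (standard error 0.15, adjusted p = 0.00595), 0.31 for MAP2K7 (standard error 0.05, adjusted p = 0.00769) and -0.53 for MAPKAPK3 (standard error 0.05, adjusted p = 0.00367).

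**Figure D4:**
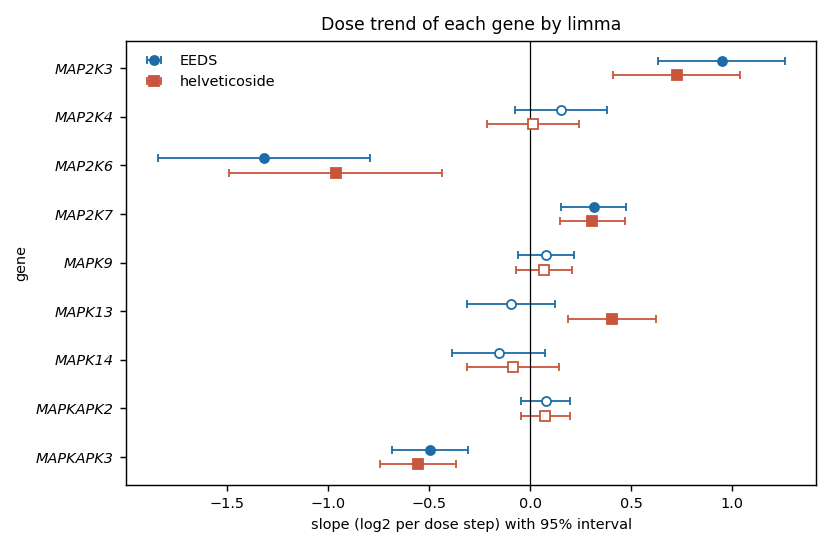
Slope of each gene per dose step by limma over the 8 arrays, with its 95% interval, for EEDS (circles) and helveticoside (squares). Filled symbols mark an adjusted p under 0.05 over 19043 genes. MAP2K3 and MAP2K7 lie above 0 and MAP2K6 and MAPKAPK3 below 0 for both agents, and MAPK13 is the gene whose intervals do not overlap.

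The slopes of both agents were compared gene by gene in the same fit, which for 9 genes gave 9 differences (EEDS minus helveticoside). By limma, 0 of the 9 and 0 of the 19043 genes passed the test, and 1 of the 9 and 525 of all genes had an unadjusted p under 0.05. This gene was MAPK13, whose difference was -0.50 (95% interval -0.81 to -0.19), with an unadjusted limma p of 0.00773 and an adjusted p of 1. The 95% intervals ran from -0.22 to 0.67 for MAP2K3, from -1.10 to 0.39 for MAP2K6, from -0.22 to 0.24 for MAP2K7 and from -0.21 to 0.32 for MAPKAPK3. These intervals leave room for a difference as large as the helveticoside slope for MAP2K6, and the dose steps are not equivalent between an extract and a pure compound. Because the agents were never on arrays of one series, the agent and the series cannot be told apart.

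The lowest doses differed in how many of the genes had moved. At 1.25 μg/mL EEDS, 2 genes were over 1.5-fold higher (MAP2K3 and MAP2K7) and 2 lower (MAP2K6 and MAPKAPK3), where 11.9% of all genes were higher and 11.3% lower. At 3.75 nM helveticoside, 0 of the 9 were over 1.5-fold in either direction, where 7.34% and 9.71% of all genes were. MAP2K6 came closest, with a log2 ratio of -0.56. At the middle doses, the same 4 genes were over 1.5-fold with EEDS, and with helveticoside these 4 and MAPK13. With EEDS, 16.3% of the genes on the arrays lay higher and 17% lower at this dose, and with helveticoside 14.8% and 16.1%. At the top doses the counts were as at the middle doses, with 23.1% of all genes higher and 23.2% lower for EEDS and 20.5% and 20.3% for helveticoside. A single array per dose allows no test of these counts.

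The median log2 ratio of the 9 genes was 0.17 at the top dose of EEDS and 0.24 at that of helveticoside, against 0.02 and -0.00 over all genes tested. The values are relative to the other mRNAs on an array, so less of an mRNA per cell and fewer cells that carry it cannot be told apart, nor could a change of total RNA be seen.

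The genes around the cascade were taken from lists by role. Of the 17 MAP3 and TAO kinases, 1 rose and 0 fell with either agent at the adjusted threshold. Over all genes, 7.26% rose and 7.85% fell with EEDS, and 5.49% rose and 5.81% fell with helveticoside. By the mean slope 2 rose (MAP3K1 and MAP3K2) and 3 fell (MAP3K6, MAP3K11 and MAP3K12), close to the 14.5% and 15.6% of all genes. MAP3K12 was well above background on 7 of 8 arrays. MAP3K2, an activator of the JNK and ERK5 arms, had log2 ratios of 1.41 and 1.01 at the top doses of EEDS and helveticoside (adjusted p = 0.0216 and 0.0424), and MAP3K1 was over 2-fold higher at both top doses (adjusted p = 0.0632 and 0.0703 by agent, 0.0153 for the mean). MAP3K6, a relative of ASK1, had -1.57 and -1.66, with an adjusted p of 0.0215 for the mean slope. MAP3K13 had 1.13 and 0.33 at the top doses but did not pass the test (limma adjusted p = 0.408 and 0.871). The median over the list was -0.17 with EEDS and -0.12 with helveticoside. Of the 8 remaining p38, JNK and p38-activated kinases, 1 fell with EEDS (MAPK12, p38 gamma, well above background on 3 of 8 arrays) and 0 rose. With helveticoside none was called by limma. With 8 genes beside the shares above, these counts and those by the mean slope are no result about the list. By the mean slope, RPS6KA5 (MSK1, a kinase that p38 and ERK activate) rose, with log2 ratios of 0.75 and 0.60 at the top doses (adjusted p = 0.0386), and 2 fell. These were MAPK11 (p38 beta), with -0.77 and -0.65 (adjusted p = 0.0335), and MAPK12 (adjusted p = 0.0289). MKNK2, a kinase of the translation factor eIF4E, had -1.69 and -0.99, with adjusted p of 0.135 and 0.395. MAPK10 (JNK3), known mainly from neurons, was not well above background on any array.

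Scaffolds hold the kinases of a cascade together. Of 10 scaffold and partner genes, 2 rose and 1 fell with EEDS, and 1 rose and 0 fell with helveticoside. Over all genes, 7.26% rose and 7.85% fell with EEDS, and 5.49% rose and 5.81% fell with helveticoside. The list was chosen with earlier results of these data known, so its counts are no result about scaffolds as a group. MAPK8IP3 (JIP3) had log2 ratios of 2.14, 2.16 and 3.22 with EEDS (adjusted p = 0.0306) and 0.14, 0.86 and 1.77 with helveticoside (adjusted p = 0.101). SPAG9 (JIP4), its closest relative, had 0.60, 1.01 and 2.15 and then -0.02, 0.63 and 1.69, with adjusted p of 0.0282 and 0.0479. SH3RF1 had 1.07 and 0.76 at the top doses but did not pass the test (limma adjusted p = 0.152 and 0.343). ARRB2, a beta-arrestin that binds JNK3, fell to -1.13 with EEDS (adjusted p = 0.0263) and had -0.75 at 60 nM (adjusted p = 0.0770).

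Most of the phosphatases that switch p38 and JNK off rose with EEDS. Of 7 such genes, 4 rose with EEDS (DUSP1, DUSP10, PPM1A and PPM1D) and 3 with helveticoside (DUSP1, DUSP10 and PPM1D), and 0 fell, where 7.26% of all genes rose with EEDS and 5.49% with helveticoside. The list was chosen with earlier results of these data known, so its counts are no test of the phosphatases as a group. DUSP1 had log2 ratios of 0.83 at the low and 2.78 at the top dose of EEDS and of 0.76, 1.59 and 2.64 with helveticoside (adjusted p = 0.0129 and 0.0165). PPM1D (WIP1), a phosphatase that inactivates p38, had 0.70, 1.28 and 2.88 with EEDS and was likewise higher at each dose of helveticoside (adjusted p = 0.0145 and 0.0289). PPM1A had 1.48 and 1.04 (adjusted p = 0.0216 and 0.0590), and DUSP8, a JNK phosphatase, had 1.44 and 0.18 and did not pass the test. All 7 were over 1.5-fold higher at 20 μg/mL, as were 23.1% of all genes, and the list's median was 1.48 with EEDS and 1.04 with helveticoside.

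Of 10 transcription factors that p38 or JNK phosphorylate, 6 rose with EEDS and 2 with helveticoside (JUN and MEF2D), and 0 fell, against the same shares of 7.26% and 5.49% over all genes. This list too was chosen with earlier results known, so its counts are no test of these factors as a group. JUN, the namesake target of JNK, had log2 ratios of 3.52 and 2.97 at the top doses (adjusted p = 0.00721 and 0.0147), and MEF2D had 1.18 with EEDS and a larger ratio with helveticoside (adjusted p = 0.0221 and 0.0190). JUND had 1.47 and 1.31 (adjusted p = 0.0436 and 0.0703). DDIT3 (CHOP) had 4.79 and 3.02, with adjusted p of 0.0357 and 0.0711. By limma, 4 of 4 MAPKAPK2 substrates did not pass the test for either agent, although by the mean slope HSPB1 (HSP27) fell (-1.04 and -0.78 at the top doses, adjusted p = 0.0235). Over all genes, 7.85% fell with EEDS, 5.81% with helveticoside and 15.6% by the mean slope. ZFP36, whose protein MAPKAPK2 inactivates as an mRNA decay factor, had 2.55 and 1.16, with an adjusted p of 0.0651 for the mean slope.

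In the neighbouring ERK and ERK5 kinases, 1 of 12 genes rose with each agent and 0 fell. Over all genes, 7.26% rose and 7.85% fell with EEDS, and 5.49% rose and 5.81% fell with helveticoside. The count was thus near these shares and is no result about the list, and the values below concern single genes. The called gene was MAP2K1 (MEK1), with log2 ratios of 0.53, 0.97 and 1.14 with EEDS and 0.34, 0.82 and 1.29 with helveticoside (adjusted p = 0.0165 and 0.0180). MAP2K5, the ERK5 activator, had -2.11 and -1.41 at the top doses, with adjusted p of 0.0722 and 0.176 by agent and 0.0294 for the mean slope. The list's median was 0.06 and 0.16.

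**Figure D5:**
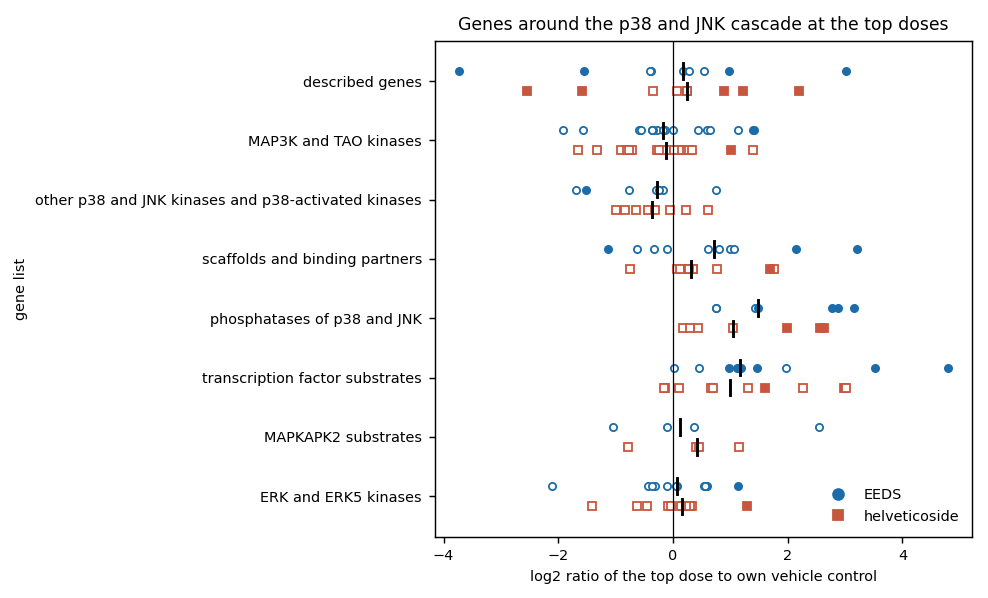
Log2 ratio of the top dose to the own vehicle control for each gene of the lists, for EEDS (circles) and helveticoside (squares). Filled symbols mark a trend at an adjusted p under 0.05 and black bars the median of a list. The phosphatases (medians 1.48 and 1.04) and the transcription factor substrates (1.17 with EEDS) lie mostly to the right of 0, while the described genes spread to both sides.

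The genes whose ratios ran most like those of MAP2K3 over the 6 treated arrays, among 11495 other genes measured above background throughout, were AMMECR1L, FAM53C, PPM1D, RIMKLB and SIRT1, each with a Pearson r of 0.997. PPM1D came closest to MAP2K3 in size, while SIRT1 had 1.34 and 0.93 at the top doses. The genes most like MAP2K6 were IFFO2 (r = 0.990), TLE6 (0.988), HLA-DMA (0.988), TLE2 (0.986) and LLGL2 (0.986). TLE6 had log2 ratios of -0.65, -1.52 and -1.80 with EEDS and -0.12, -1.07 and -0.98 with helveticoside, with the same bend at the middle dose. IFFO2, in contrast, was above its control at the low doses (0.61 and 0.75). It was below its control at the middle and top doses of EEDS (-0.20 and -0.41), but not of helveticoside (0.11 and 0.04). These correlations rest on 6 ratios that share the control of their series, and they are a description of likeness only.

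Across the arrays, the probe spots had a median signal of 182 to 278 over a median local background of 27 to 34, and 56.9% to 66.9% of the probe spots were well above background. The scanner software's error was 10.0% to 14.9% of the signal for the probes of the 9 genes, apart from the MAPK13 probes, and this covers neither the cultures nor the hybridization. The difference between the control arrays had an SD of 0.48 on the log2 scale over the 11496 genes measured above background throughout. Of the A549 label, the epithelial markers KRT8, KRT18, KRT19, CDH1 and EPCAM were well above background on all arrays, whereas of 5 alveolar type II genes SFTPA1, SFTPB and NKX2-1 were so on none, SFTPC on 4 and ABCA3 on 8 arrays. ABCA3 fell, with log2 ratios of -3.18 and -3.03 at the top doses (limma adjusted p = 0.0145 and 0.0185). By the mean slope 4 of the 5 epithelial markers fell, as did 15.6% of all genes, with CDH1 at -2.70 and -2.71 at the top doses. The part of these markers and of ABCA3 in the changes of the kinases was not tested. Of 7 markers of blood, endothelial and fibroblast cells, CD3E, PECAM1 and VWF were not well above background on any array and PTPRC, CD68 and COL1A1 were on all, and the median of the list was 0.20 at both top doses.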

How the data were processed

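RNA of A549 cells was hybridized to 8 single-dye arrays, 1 per dose. The authors deposited each array's spot intensity values from the Agilent Feature Extraction software: the median signal, the local background, a background-subtracted processed signal with its error, and calls of outlier and well-above-background spots. Their deposited table of normalized intensity served as an alternative.

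Control and outlier spots were left out, spots of a probe were averaged, and quantile normalization over the 8 arrays preceded log2 transformation. Of 34105 probes with usable spots, 24809 were named through RefSeq transcript identifiers (GRCh38.p14), and the probe with the highest mean stood for its gene. Genes were kept when the median signal reached 1.4 times the local background on at least 1 array of each series (19043 genes), and values under this limit were raised to the lowest detected signal of the array. With 1 array not well above background, a second ratio used the higher of its own value and the lowest well-above-background signal. For the second MAPK13 probe at 20 μg/mL this equalled the plain ratio. The trend models (4 residual degrees of freedom) used limma 3.58.1 in R 4.3.3 with its trend and robust options and statmod 1.5.0, and were checked on simulated data. Ratios were also computed in R, and spots were averaged with pandas 2.3.3 and numpy 2.4.6 under Python 3.11.15.

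All 9 genes were named with every array. From the lists, genes that cleared background on both controls and both top doses and were over 2-fold at either top dose were named, up to 4 per list, together with other genes behind small counts, which were chosen after their values were seen. The genes of the cascade and the lists were chosen with earlier results of these data known. There were no replicates, so p-values measure the scatter of the arrays about a straight line, which includes any bend in the response to dose. Alternatives were the signal as scanned, normexp (offset 50), 75th percentile scaling, the deposited table, other filters, the mean of all probes, another spread estimate, another reference, a 2-fold threshold and fits without doses or, chosen after seeing the data, without single arrays.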

Additional observations from a re-analysis of the deposited data

How the results depend on the processing

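The number of described genes with a mean trend of both agents was 4 in the reported values and 3 to 5 under 10 of 11 alternatives, with 0 without the top dose of each series. MAP2K3, MAP2K6 and MAPKAPK3 were called under the same 10 alternatives. The counts per agent rest on all doses. By limma, 0 of the 9 genes had an EEDS trend and 0 a helveticoside trend without the lowest, the middle or the top dose of each series or with the 4 arrays of a series alone, although 4 and 5 of them had an unadjusted p under 0.05 in each of these fits, as had 4 for the mean slope without the top dose. The deposited table gave 3 genes with a helveticoside trend in place of 5. Leaving out 1 array at a time gave 0 to 4 genes for EEDS, 0 to 3 for helveticoside, 3 to 4 for the mean slope and 0 for the difference between the agents. At 20 μg/mL, 7 of the 9 genes in place of 4 were over 1.5-fold with scaling to the 75th percentile, which moved the median of all genes to -0.36, and also 7 against the mean of both controls. The cause of these moves was not tested. The direction of the slopes of MAP2K3, MAP2K6, MAP2K7 and MAPKAPK3 was the same in all 20 alternatives per agent, and the EEDS slope of MAP2K3 ranged from 0.64 to 1.06 and that of MAP2K6 from -1.69 to -0.87. The top-dose ratio of MAPK13 with EEDS ran from -1.03 to 0.70. With p-values adjusted over all 34086 probes in place of genes, the helveticoside trends of MAP2K6 (0.0565), MAP2K7 (0.0536) and MAPK13 (0.0542) passed the threshold of 0.05 no longer. No paired analysis was possible because each group was 1 array. The number of arrays, 1 per dose, limits the precision, and of the described probes those of MAPK13 were limited by signal near the background. The MAP2K6 probe was well above background but dim at the middle and top doses of EEDS, with processed signals of 82.7 and 69. The size of its fall varied with the processing.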
